A study of Mus musculus with 6 samples.

Results

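The genes described here make, bind and break down retinoic acid, here in the outflow tract, the vessel-like exit of the mouse embryo's heart. They are 9 genes, namely Aldh1a1, Aldh1a2, Aldh1a3, Rdh10, Dhrs3, Cyp26a1, Cyp26b1, Crabp1 and Crabp2. Every probe set whose annotation named 1 of them and no other gene was taken, which gave 12 of the 45037 probe sets other than controls, and 9 of 18193 named genes. A probe set is a group of short probes on the array that reports on 1 transcript. CD1 hearts of embryonic day 10.5 had this tract cut into a superior and an inferior part. Pieces were pooled, and their total RNA was measured on Affymetrix Mouse Genome 430 2.0 arrays. The 3 superior and 3 inferior pools carried the numbers 1, 6 and 7 in both regions. The embryos carried no named allele and received no treatment in the labels, so region was the 1 contrast. The sample labels give 6 littermates per pool and the design text 7 dissected samples per domain, and nothing in the sources says that pools came from separate litters, so p-values measure the spread between these pools.

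Retinoic acid is a small signalling molecule made from vitamin A. Rdh10 oxidises retinol to retinaldehyde, Dhrs3 reduces it back, and the retinaldehyde dehydrogenases Aldh1a1, Aldh1a2 and Aldh1a3 turn retinaldehyde into retinoic acid. Crabp1 and Crabp2 carry retinoic acid inside the cell, and the cytochrome enzymes Cyp26a1 and Cyp26b1 break it down. The acid acts through the nuclear receptors Rara, Rarb and Rarg, which pair with a retinoid X receptor on repeated core motifs in DNA. In the embryonic heart retinoic acid patterns the inflow end and the second heart field, and the epicardium, the cell sheet on the heart surface, is a known source of it.

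The promoter sequences of Aldh1a1, Aldh1a2 and Cyp26a1 are shown because both synthesis genes differed between the regions and Cyp26a1 is a textbook target of retinoic acid. RefSeq windows on build GRCm38.p6 were found for 6 of the 9 genes, and the 250 bases before the transcript start are printed 5′ to 3′ on the gene's strand. Capitals mark a receptor core motif, searched on both strands as AGGTCA and as its form AGTTCA, and with a first G in place of A as GGGTCA and then also as GGTTCA.
Aldh1a1 (chr19:20601718-20601967, plus strand): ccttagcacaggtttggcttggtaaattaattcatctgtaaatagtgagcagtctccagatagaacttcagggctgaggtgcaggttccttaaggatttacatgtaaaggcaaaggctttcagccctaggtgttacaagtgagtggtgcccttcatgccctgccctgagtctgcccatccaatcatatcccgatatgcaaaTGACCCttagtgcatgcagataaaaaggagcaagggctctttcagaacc
Aldh1a2 (chr9:71215539-71215788, plus strand): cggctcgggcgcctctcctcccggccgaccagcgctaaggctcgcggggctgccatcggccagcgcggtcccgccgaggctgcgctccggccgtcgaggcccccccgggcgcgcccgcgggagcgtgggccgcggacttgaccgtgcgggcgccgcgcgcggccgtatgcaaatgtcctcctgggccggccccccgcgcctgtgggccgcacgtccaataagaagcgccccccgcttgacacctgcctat
Cyp26a1 (chr19:37697558-37697807, plus strand): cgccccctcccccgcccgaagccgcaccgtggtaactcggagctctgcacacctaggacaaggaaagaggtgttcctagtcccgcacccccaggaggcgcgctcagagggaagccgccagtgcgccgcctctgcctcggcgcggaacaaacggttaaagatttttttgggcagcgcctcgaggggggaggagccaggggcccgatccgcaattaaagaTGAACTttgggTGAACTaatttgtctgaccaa
The Cyp26a1 window held 2 core motifs with 5 bases between them, the arrangement called a direct repeat 5 that retinoic acid receptors bind. Of all 32851 promoter windows of this length, 0.0883% held such a repeat and 38.6% held at least 1 core motif. The Aldh1a1 window held 1 core motif and no repeat with a spacing of 1, 2 or 5 bases, another Aldh1a1 start in RefSeq held none, and the Aldh1a2 window held none. The receptor gene Rarb also had a direct repeat 5, between 53 and 37 bases before its start. Both repeats are given on the strand of their core motifs, which are in capitals, to set the responsive genes side by side.
Cyp26a1 repeat (chr19:37697776-37697792, minus strand): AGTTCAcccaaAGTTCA
Rarb repeat (chr14:16575513-16575529, minus strand, the gene's own): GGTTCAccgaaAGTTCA
A match describes these letters only.

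Signals are linear MAS5 values, scaled so that each array has a trimmed mean of 100, and a signal above 8.0, the highest value of 27 bacterial control probe sets, is called above background. The median signal ranged from 13.9 to 17.6 over the arrays and 58.4% to 63.1% of probe sets were above background. Heart muscle was plain in all pools, with the 8 tested markers above background on every array. The summed signal of these markers was 30017 to 35637 in superior and 27872 to 28009 in inferior pools. Of the 8, 6 were higher and 2, Nkx2-5 and Ttn, lower in superior pools, with 0 called in the tests described below. Their median log2 difference, superior minus inferior, was 0.21. It moved to -0.0055 with quantile normalization and to 0.072 with cyclic loess. Both pool 1 arrays stood apart in transcripts of the Y chromosome. Eif2s3y had signals of 2.2 and 1.1 there against 90.8 to 186.9 on the other 4 arrays, and Kdm5d 0.5 and 1.1 against 68.2 to 109.6. Xist went the other way, with 2698.6 and 2684.5 in pool 1 against 925.5 to 1413.9. The part of embryo sex in the differences between pools was not tested. The ratio of 3′ to 5′ Gapdh signal, a sign of RNA quality, was 1.30 on superior 1 and 2.21 on inferior 1 against 0.832 to 0.899 on the other 4 arrays. For Actb it was 2.23 and 2.26 against 1.45 to 1.87. The part of these pool 1 values in the calls that were lost without pool 1 was not tested. Hybridisation controls were brightest on superior 6, at 1.64 times the median array. Liver markers were uneven too, with a summed signal of 1564 on superior 6 and 543.8 on inferior 6 but 91.9 and 89.1 in pool 7.

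The synthesis genes Aldh1a1 and Aldh1a2 were the members called higher in the superior part, and no member was called lower. Of the 12 probe sets, 9 of 8 genes had a mean level above the median of all probe sets and were tested with limma, regions being compared within pool numbers. Of these 9, 2 were called at an adjusted p threshold of 0.05, both higher in superior pools, where 0.0933% of all 22518 tested probe sets were called higher and 0.0666% lower. In pooled tissue a difference in the number of cells of a type and in RNA per cell cannot be told apart. The median log2 difference was -0.027 over the 9 and -0.023 over all tested probe sets. Without the pool number in the fit, limma called none of the 9 and none of the 22518, while 792 of all probe sets (3.52%), 2 of them members, had an unadjusted p below 0.05. Exact tests of a single gene cannot pass here, since 3 pairs allow no two-sided p below 0.25 and 3 arrays against 3 none below 0.1.

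**Figure D1:**
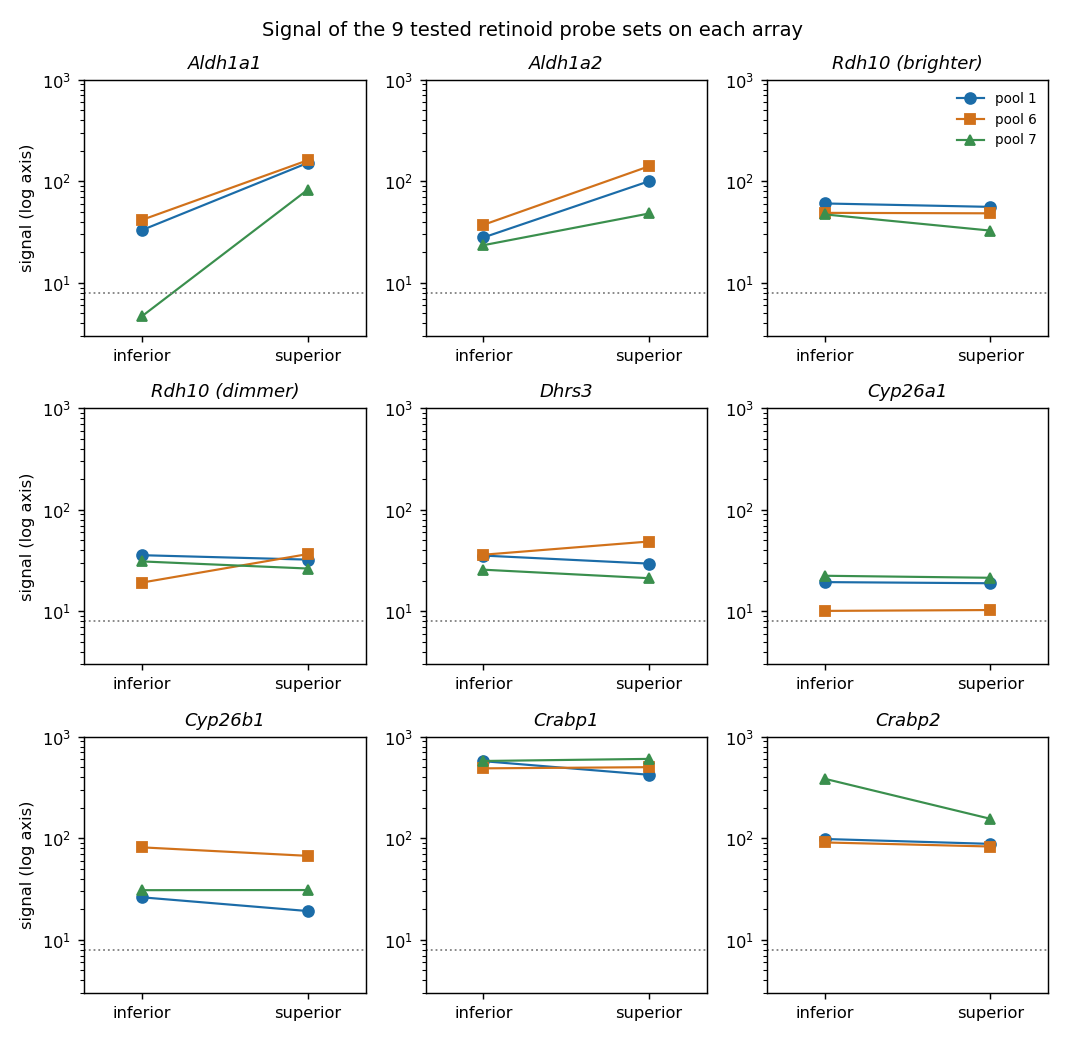
Signal of each tested retinoid probe set on each array (vertical log axis, MAS5 signal), with inferior and superior pools of the same number joined by a line and the background of 8.0 dotted. Lines climb from inferior to superior in all 3 pools for Aldh1a1 and Aldh1a2, the Cyp26a1 and Cyp26b1 lines are nearly flat but lie apart by pool, and Crabp2 stands out at 384.6 in inferior pool 7.

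Aldh1a1, a cytosolic retinaldehyde dehydrogenase, had signals of 151.5, 161.0 and 82.5 in superior pools 1, 6 and 7. The inferior pools of the same numbers had 33.1, 41.7 and 4.7. The regions did not overlap, which held for 9.21% of all tested probe sets, and the inferior pool 7 value lay below background. Taken on log2(signal + 3.2), the pools gave log2 differences of 2.09, 1.87 and 3.44, and 34.0% of all tested probe sets had 1 sign in all 3 pools. The mean difference of 2.47 ± 0.28 (SE, 95% interval 1.80 to 3.13, limma adjusted p = 0.0411) rests in part on that dim value. With every signal below background set to it, an alternative chosen after seeing the data, the difference was 2.30 ± 0.21 (SE, limma adjusted p = 0.0105). Without pool 7 it was 1.98 with an adjusted p of 1.2e-05 from limma. That fit has fewer pools and leans still more on variance shared across probe sets, so its smaller p is not stronger evidence. It called 116 of all probe sets, against 36 with all pools. The call was lost without pool 1 (2.66, adjusted p = 0.124 by limma) and with no pool number in the fit (limma adjusted p = 0.9999). It was also lost with an offset of 1 in place of 3.2 (0.0972), with dim probe sets kept (0.141), with quantile normalization (0.0513) and without trend and robust variance (0.202), each a limma adjusted p.

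Aldh1a2, the main synthesising enzyme of the early embryo, had signals of 100.2, 140.6 and 48.2 in superior pools 1, 6 and 7. In the matching inferior pools it had 28.0, 37.3 and 23.5, all above background. The superior pool 7 value was the lowest of its region and still lay above every inferior value. On the log2 scale pools 1, 6 and 7 differed by 1.73, 1.83 and 0.94. The mean of 1.50 ± 0.19 (SE, 95% interval 1.06 to 1.94, limma adjusted p = 0.0411) ranked 16 by size and 13 among probe sets higher in superior. Without pool 1 it was 1.39 and was not called (limma adjusted p = 0.110), and with no pool number in the fit the limma adjusted p was 0.9999. The call was also lost with dim probe sets kept (limma adjusted p = 0.184) and without trend and robust variance (limma adjusted p = 0.202). In pools 1 and 6 the folds of both genes were close, at 4.26 and 3.66 for Aldh1a1 and 3.31 and 3.55 for Aldh1a2. In pool 7 they lay apart, at 10.8 for Aldh1a1, whose inferior signal was below background, and 1.93 for Aldh1a2. These folds come from the log2 differences, so they include the offset added to each signal and are not ratios of the printed signals.

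Aldh1a3, the third retinaldehyde dehydrogenase, had 3 probe sets, none above background on any array. Their signals ranged from 0.4 to 6.7, so no difference is given and Aldh1a3 was not tested. These arrays thus gave a measurable signal for 2 of the 3 synthesising dehydrogenases.

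**Figure D2:**
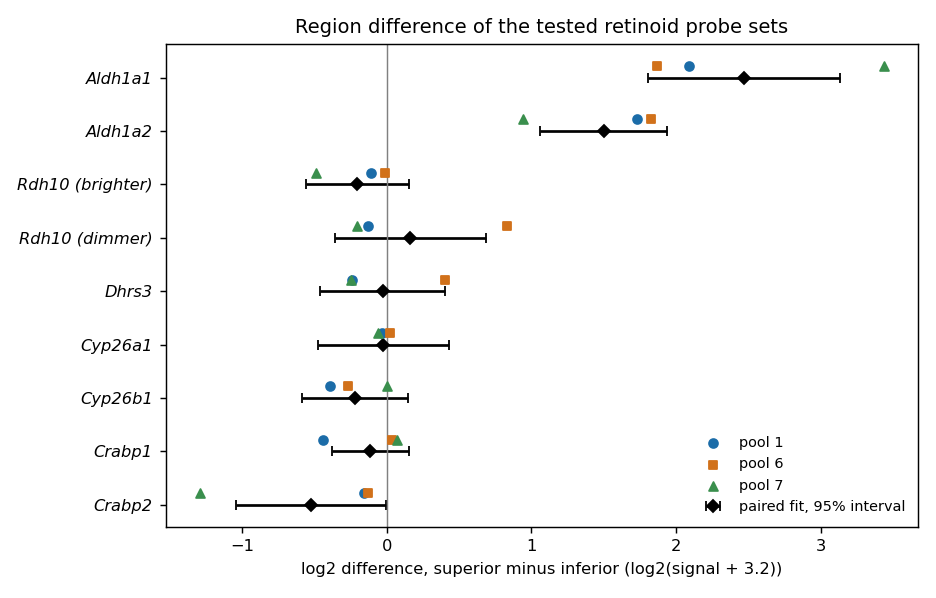
Log2 difference, superior minus inferior, of each tested retinoid probe set (horizontal axis), with the mean and 95% interval of the paired limma fit as a black diamond and bar, and the 3 pool differences as coloured points above it. The intervals of Aldh1a1 (1.80 to 3.13) and Aldh1a2 (1.06 to 1.94) lie away from 0, while those of the other members except Crabp2 include 0.

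The enzymes that act on retinaldehyde one step earlier gave no call. Rdh10, which makes retinaldehyde, had signals of 56.0, 48.4 and 32.7 in superior and 60.5, 48.9 and 47.2 in inferior pools 1, 6 and 7 for its brighter probe set. The regions overlapped, and the difference was -0.20 ± 0.16 (SE, 95% interval -0.56 to 0.15, limma adjusted p = 0.674). Its dimmer probe set gave 0.16 ± 0.23 (SE, adjusted p = 0.834 by limma), with 0.83 in pool 6 and -0.13 and -0.21 in pools 1 and 7, so the probe sets differed in sign. The interval of the brighter probe set leaves room for a superior level between 0.679 and 1.11 times the inferior one.

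Dhrs3, which returns retinaldehyde to retinol and is itself induced by retinoic acid, had signals of 29.5, 48.7 and 21.2 in superior pools. In inferior pools 1, 6 and 7 it had 35.4, 36.1 and 25.7. Dhrs3 was higher in superior tissue in pool 6 and lower in pools 1 and 7, with a difference of -0.027 ± 0.19 (SE, 95% interval -0.46 to 0.40, limma adjusted p = 0.973). The sign turned under each of the 3 other scalings tried.

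The breakdown enzymes lay apart by pool number and gave no call between regions. Cyp26a1 had signals of 18.9, 10.3 and 21.4 in superior and 19.4, 10.1 and 22.4 in inferior pools 1, 6 and 7. Pool 6 was low in both regions, and the regions differed by -0.023 ± 0.20 (SE, 95% interval -0.48 to 0.43, limma adjusted p = 0.981), with the sign turned under the other scalings. The 3 pool differences, from -0.057 to 0.022, were closer to each other than the SE, which limma draws partly from other probe sets of like level.

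Cyp26b1 had signals of 19.2, 67.1 and 30.9 in superior and 26.2, 81.3 and 30.8 in inferior pools 1, 6 and 7. Here pool 6 was high in both regions, the opposite of Cyp26a1. The region difference was -0.22 ± 0.16 (SE, 95% interval -0.58 to 0.15, limma adjusted p = 0.662).

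The binding proteins gave no call either. Crabp1, which holds retinoic acid in the cytoplasm, had signals of 421.3, 500.7 and 604.2 in superior and 573.5, 487.6 and 576.2 in inferior pools 1, 6 and 7. The regions overlapped and the difference was -0.11 ± 0.12 (SE, 95% interval -0.38 to 0.15, limma adjusted p = 0.763). It was 0.053 without pool 1.

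Crabp2, which delivers retinoic acid to its receptors, had signals of 88.0, 82.9 and 155.2 in superior and 98.3, 90.9 and 384.6 in inferior pools 1, 6 and 7. The inferior value was the higher one in each pool, by a little in pools 1 and 6 and most in pool 7, where the log2 difference was -1.29. The mean difference was -0.52 ± 0.22 (SE, 95% interval -1.04 to -0.0055, limma adjusted p = 0.450). The unadjusted p was 0.0482, which 11.0% of all tested probe sets passed at a 0.05 threshold, and without pool 7 the difference was -0.14. On the inferior 7 array Crabp2 was 3.97 times the mean of the other 2 inferior arrays on the log2(signal + 3.2) scale, rank 33 of 22518. The same array had the highest summed signal of Epcam and Cdh1, at 113.7 against 27.1 to 55.5 on the other 5. These were the tested genes of the pharyngeal endoderm list, whose Foxa2, Pax9, Nkx2-1 and Shh were too dim to be tested. Inferior 7 also had the highest summed signal of the 6 tested second heart field markers, at 2083 against 1231 to 1701. Isl1 gave 1279 of it and was highest there. Fgf8, Tbx1, Tbx5 and Foxf1 were highest there too, at 57.2, 71.1, 46.3 and 32.2. Mef2c was not, with 597.0 on inferior 7 against 607.0 on superior 7. The part of any such tissue in the Crabp2 value was not tested.

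**Figure D3:**
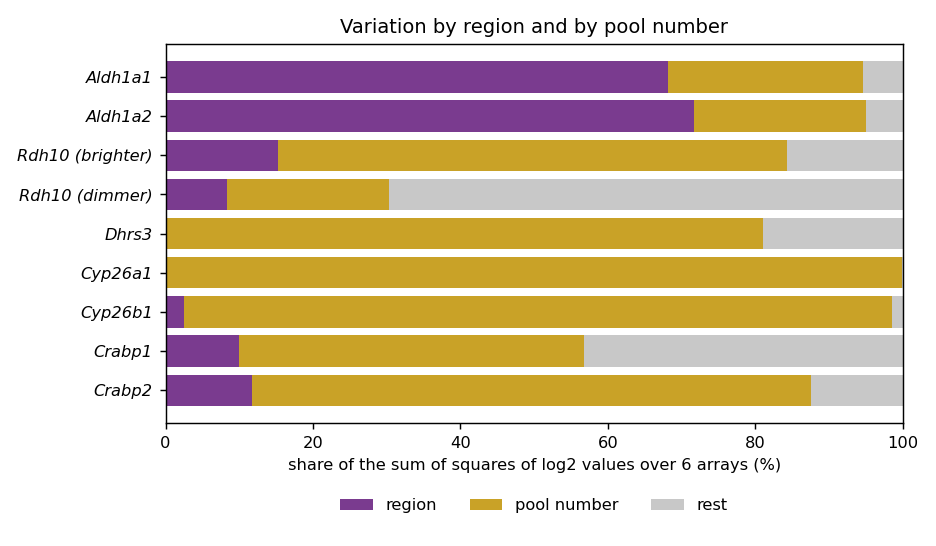
Share of the sum of squares of log2 values over the 6 arrays (horizontal axis, %) that lay between regions, between pool numbers and in the rest, for each tested retinoid probe set. Region took 68.1% for Aldh1a1 and 71.7% for Aldh1a2, and pool number took 99.7% for Cyp26a1 and 96.0% for Cyp26b1.

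Splitting the variation of each member into region, pool number and a rest set the synthesis genes beside the breakdown genes. Region took 68.1% of the sum of squares for Aldh1a1 and 71.7% for Aldh1a2, against a median of 9.86% over all tested probe sets. Pool number took 99.7% for Cyp26a1, 96.0% for Cyp26b1, 80.9% for Dhrs3 and 75.8% for Crabp2, against a median of 59.3%. In a test of the pool term, chosen after these values were seen, limma's adjusted p was 0.00292 for Cyp26b1 and 0.0177 for Crabp2. Cyp26a1 and Dhrs3 did not pass, with limma adjusted p of 0.0677 and 0.119, and 14.1% of all tested probe sets passed. Aldh1a1 and Aldh1a2 passed as well, with limma adjusted p of 0.0261 and 0.0449. What separated the pools was not tested.

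Across the 6 arrays Aldh1a1 and Aldh1a2 had a Pearson correlation of 0.88, and Cyp26a1 and Cyp26b1 one of -0.89. These describe 6 arrays that share regions and pools. The genes whose probe set was most correlated with Aldh1a1 were Ndufaf7 (r = 0.991), Slc7a4 (0.987), Slc25a3 (0.986), Upk1b (0.984) and Agtr1a (0.984). With Aldh1a2 they were Arhgap18 (r = 0.991), Trip12, Ric1 and Ppic (0.982 each) and Cks2 (0.980). Of these 10, Upk1b, a uroplakin of mesothelial cells, was the 1 called between regions, at 2.13 ± 0.25 (SE, limma adjusted p = 0.0300). This was a dimmer Upk1b probe set than the one among the epicardial markers below, which gave 1.84 ± 0.23. The others differed by 0.053 to 0.56.

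**Figure D4:**
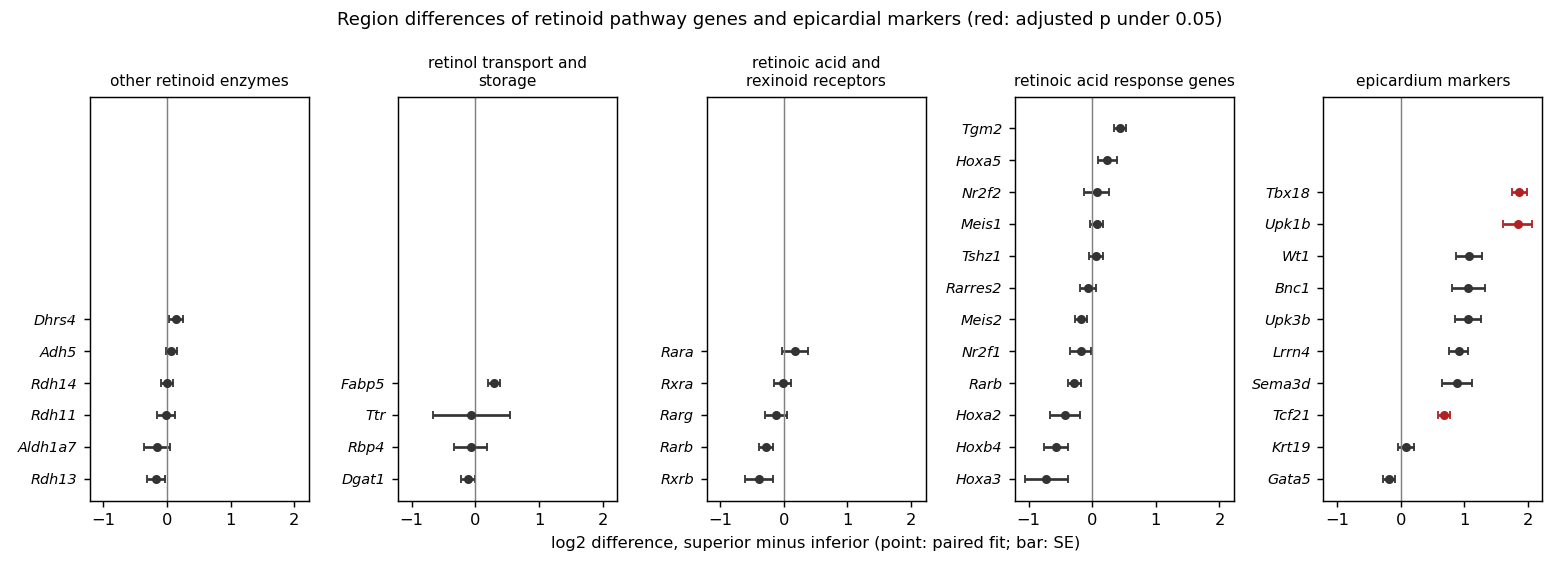
Log2 difference, superior minus inferior (horizontal axis), of the tested genes of 4 retinoid lists and of epicardial markers, as the paired limma fit (point) with its SE (bar), red where the adjusted p was under 0.05. The retinoid lists spread on either side of 0 with 0 calls, and 9 of 10 epicardial markers lie right of 0.

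The rest of the pathway gave no call in either direction. Calls were rare over all 11195 genes tested, with 17 higher and 10 lower, so 0 calls in a short list says little about it. Of all genes tested 49.2% were higher in superior pools. Of 19 other listed retinoid enzymes 6 were tested, 3 higher and 3 lower in superior pools, with a median of -0.0028 beside -0.0028 over the 11195 genes tested. The largest were Rdh13, a retinol dehydrogenase family member, at -0.17 ± 0.15, Aldh1a7, a close relative of Aldh1a1, at -0.16 ± 0.21, and Dhrs4 at 0.14 ± 0.11. Aldh1a7 had signals of 56.8, 36.7 and 43.1 in superior and 80.5, 25.1 and 61.6 in inferior pools, an order unlike that of Aldh1a1.

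Of 11 genes of retinol transport and storage 4 were tested, 1 higher and 3 lower (median -0.069). Fabp5, a fatty acid carrier that also binds retinoic acid, had a difference of 0.29 ± 0.09 (SE, limma adjusted p = 0.370), with the superior value higher in all 3 pools. Dgat1, which can esterify retinol, had -0.12 ± 0.11. Rbp4, the retinol carrier of blood, had -0.076 ± 0.25, with its highest signal of 148.1 on the superior 6 array, where the liver product Ttr was also highest at 570.4. Stra6 and Lrat were among those not tested.

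Of the 6 receptor genes 5 were tested, 1 higher and 4 lower (median -0.12). Rarb, itself a target of retinoic acid and holder of the repeat printed above, had signals of 122.9, 165.2 and 89.6 in superior and 156.8, 189.9 and 111.1 in inferior pools 1, 6 and 7. The inferior value was the higher one in each pool, while the regions overlapped, and the difference was -0.28 ± 0.11 (SE, limma adjusted p = 0.417). Rxrb had -0.39 ± 0.22 and Rara 0.18 ± 0.20. The 8 tested co-regulators, proteins that switch these receptors on or off, had 1 higher and 7 lower with a median of -0.075, the largest being Ep300 (-0.27 ± 0.13), Nsd1 (-0.13 ± 0.10) and Ncoa3 (-0.10 ± 0.11).

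Genes known to respond to retinoic acid were not called either, where 17 of all 11195 genes tested were called higher and 10 lower. Of 22 listed 12 were tested, 5 higher and 7 lower, with 0 called and a median of -0.12. The median was 0.11, 0.013 and -0.29 in pools 1, 6 and 7. It was 0.031 without pool 7 and -0.21 without pool 6. Hoxa3 had -0.72 ± 0.34 (SE, limma adjusted p = 0.486) and Hoxb4 -0.57 ± 0.19 (SE, limma adjusted p = 0.378), both homeobox genes of the hindbrain and pharyngeal region. Their highest signals, 65.9 and 61.7, were on the inferior 7 array. Tgm2, a transglutaminase, had 0.44 ± 0.10 (SE, limma adjusted p = 0.182), higher in superior tissue in all 3 pools. Of the 28 genes with a direct repeat 5 in their promoter window 6 were tested, 3 higher and 3 lower with none called, Cyp26a1 and Rarb among them.

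Most markers of the epicardium had higher values in the superior pools, as the synthesis genes did. Of the 10 tested markers other than Aldh1a2, 9 were higher in superior pools and 3 were called, with a median log2 difference of 0.98. Over all 11195 genes tested 49.2% were higher, 17 were called higher and 10 lower. Their summed signal was 1550 to 2271 in superior and 1164 to 1299 in inferior pools, all 10 were above background on all arrays, and Msln was not tested. The called ones were Tbx18 at 1.86 ± 0.12, Upk1b at 1.84 ± 0.23 and Tcf21 at 0.69 ± 0.09 (SE, limma adjusted p = 0.00260, 0.0411 and 0.0479). Wt1, the defining transcription factor of this layer, had 1.07 ± 0.21 (SE, limma adjusted p = 0.145). Gata5 went the other way at -0.18 ± 0.10, and Krt19 lay near 0 at 0.086 ± 0.12. With no pool number in the fit, the limma adjusted p was 0.9999 for each of the 10 markers. The median of the list was 1.34, 0.96 and 0.58 in pools 1, 6 and 7, beside 1.73, 1.83 and 0.94 for Aldh1a2 and 2.09, 1.87 and 3.44 for Aldh1a1. The part of epicardial content in the Aldh1a1 and Aldh1a2 differences was not tested. The median difference of liver markers was -1.79, 1.49 and 0.016 in pools 1, 6 and 7, and their part was not tested.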

How the data were processed

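Per the submitters' processing notes, the authors used MAS5 (version not given in the sources used here) to make the deposited intensity values, which are linear. Probe sets were named by the platform annotation (34945 with 1 gene, 932 with several, 9160 unnamed), and gene IDs in RefSeq changed 0 symbols. Signals were turned into log2(signal + 3.2), 3.2 being their 25th percentile, which understates the change of dim genes. The 22518 probe sets with a mean above the median, a signal of about 15.1, were tested with limma 3.58.1 in R 4.3.3 (eBayes with trend and robust variance, Benjamini-Hochberg over all), as superior minus inferior with the pool number as a block. That pairing comes from the rule that set these genes. Same-numbered arrays deviated together from their region's mean (correlations of 0.79, 0.43 and 0.51 for pools 1, 6 and 7), though superior 7 with inferior 6 also reached 0.20. The paired fit leaves 2 residual degrees of freedom, so its calls lean on variance shared across probe sets. Lists use each gene's brightest tested probe set. Text names the 9 members, and in each other retinoid list the called genes and the 3 largest differences, and for called members the 5 most correlated genes. Members and lists were chosen with earlier results of these data known. Alternatives covered the block, offset, filter, scaling, variance model and leaving out pools or arrays, and 1 added after seeing the data set signals below background to it. The number of arrays limits the precision.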

Additional observations from a re-analysis of the deposited data

How the results depend on the processing

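Without the replicate block, limma called 0 of 22518 probe sets and 0 members, and 792 probe sets had an unadjusted p below 0.05 against 2473 with it. The counts of called members and of all called probe sets were 2 and 36 as reported. They were 1 and 22 with an offset of 1, 0 and 1 without the filter on dim probe sets, and 0 and 0 without trend and robust variance, where 2225 probe sets had an unadjusted p below 0.05. With the top 25% by level they were 0 and 2, and there neither Aldh1a1 nor Aldh1a2 was among the probe sets tested. Quantile normalization called 1 member, Aldh1a2, Aldh1a1 having a limma adjusted p of 0.0513. Leaving out a pool gave 0 to 2 members and 9 to 231 probe sets, and leaving out single arrays without the block gave 0 of both. Scaling at the 75th percentile split the calls into 26 higher and 12 lower, against 21 and 15 as reported. With signals below background set to it, chosen after seeing the data, the counts were 2 and 46. Aldh1a1 was called in 6 and Aldh1a2 in 8 of 18 other settings that tested them. Both kept their direction in all 18, with differences of 1.68 to 2.94 and 1.17 to 1.92. Their limma adjusted p ran from 1.2e-05 to 0.9999 and from 4.9e-05 to 0.9999. The lowest of each came without pool 7, where the fit leans still more on shared variance. The sign of Dhrs3 turned under 75th percentile scaling (0.0081), quantile normalization (0.057) and cyclic loess (0.041), as did that of Cyp26a1 (0.0099, 0.026 and 0.055). Leaving out a pool gave -0.24 to 0.081 for Dhrs3, -0.20 to 0.053 for Crabp1 and -0.17 to 0.35 for the dimmer Rdh10 probe set. Leaving out single arrays without the block turned the sign of Dhrs3 without superior 1 (0.013), superior 7 (0.22), inferior 1 (0.038) and inferior 6 (0.051), and of Cyp26a1 without superior 6 (0.24), inferior 1 (0.075) and inferior 7 (0.16). It did so for Cyp26b1 without superior 1 (0.16) and inferior 6 (0.25), Crabp1 without superior 1 (0.015), Crabp2 without inferior 7 (0.14), and Rdh10 without superior 7 (0.0045, brighter probe set) or inferior 6 (-0.071, dimmer). These 7 probe sets were not called in any setting. The cause of these changes was not tested. Dim probe sets such as those of Aldh1a3 and Cyp26a1 are limited by their signal over background.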

Other observations

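Crabp2 was not alone in its high value on the inferior 7 array. Among genes chosen after their values were seen, Pax3, a paired box factor of neural crest and somites, had signals of 45.8 there against 7.3 and 11.0 on inferior arrays 1 and 6. Eya1, a factor of pharyngeal tissue, had 67.5 against 17.1 and 11.5. Both were also lower on the superior 7 array, at 26.8 and 34.4. The 5 tested neural crest markers other than Hand2 summed to 210.3 on inferior 7, 207.3 on inferior 1 and 174.2 on inferior 6. Among the inferior arrays Tfap2a, Dlx5 and Ngfr were highest on inferior 7, at 57.5, 24.8 and 37.2. Dlx2 was highest on inferior 1 (101.2, against 74.9 on inferior 7) and Sox10 on inferior 6 (19.6 against 15.9). Hand2 had 1683.8 on inferior 7, 1415.3 on inferior 1 and 1467.9 on inferior 6. Anapc5, also far above the mean log2 value of inferior 1 and 6, had 112.9 on inferior 7, 112.6 on inferior 6 and 0.5 on inferior 1. The part of tissue content in these values was not tested.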
